A study of Rattus norvegicus with 24 samples.

Results

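A 6 h exposure to cytokines was compared with and without the lysine deacetylase inhibitor (KDACi) Givinostat in INS1 cells, by microRNA (miR) array. The comparison comprised the 3 arrays whose titles give the group 6h_Giv_Cyt and the 3 arrays whose titles give the group 6h_Cyt, that is, 6 of the 24 arrays of the series. Each array measured 758 rat miRs, all of which were tested.

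INS1 is an insulin-secreting rat insulinoma line used as a model of the β-cell. The cells of both groups grew for 48 h and then received IL-1β at 150 pg/ml and IFN-γ at 0.1 ng/ml for 6 h. The 6h_Giv_Cyt cells had in addition been given Givinostat at 125 nM 1 h ahead of the cytokines, whereas the 6h_Cyt cells had not. The other 18 arrays held the same treatments at 24 h and the cytokine-free groups 6h_Ctrl, 6h_Giv_Ctrl, 24h_Ctrl and 24h_Giv_Ctrl, again with 3 arrays each. The text deposited with the series describes the 3 arrays of a group as technical replicates, the paper only as replicates. The p-values therefore measure the spread between these arrays, which may not include that between independent cultures.

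A miR guides the silencing complex to mRNAs that pair with its seed, bases 2 to 8 of the mature strand, so that miRs with the same seed share many targets. IL-1β activates NF-κB, which drives the miR-146a gene, and miR-146a in turn represses IRAK1 and TRAF6, signaling proteins downstream of the IL-1 receptor. Lysine deacetylases remove acetyl groups from histones and from transcription factors such as NF-κB, and their inhibitors alter the transcription of many genes, those encoding miRs among them.

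Mature sequences of miRs that the pooled correlation test called lower with Givinostat are shown first, since some of them belong to families with a shared seed. They are from RefSeq (assembly GRCr8), which held sequences for 685 of the 758 miRs, and the seed is in capitals. miR-146a-5p is shown beside miR-146b-5p, and miR-30c-5p and miR-30e-5p beside miR-384-5p, because of the shared seed.
miR-146b-5p: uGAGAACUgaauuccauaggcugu
miR-146a-5p: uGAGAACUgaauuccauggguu
miR-384-5p: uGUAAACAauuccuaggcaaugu
miR-30c-5p: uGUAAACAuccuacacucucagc
miR-30e-5p: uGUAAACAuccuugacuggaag
miR-29c-3p: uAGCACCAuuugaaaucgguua
miR-96-5p: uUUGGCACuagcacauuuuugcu
miR-340-5p: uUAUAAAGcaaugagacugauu
miR-325-3p: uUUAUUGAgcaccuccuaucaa

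Of the miRs that were highest on a single array of 6h_Giv_Cyt, 6 are shown next, because repeated short motifs stand out in them. Capitals mark the first GUGUGUG in the upper 3 sequences and the first CUCUC in the lower 3. The motif occurs again, unmarked, in miR-32-3p, where it overlaps the marked copy, and in miR-485-3p, where it follows it.
miR-32-3p: gcaauuuaGUGUGUGugauauu
miR-672-5p: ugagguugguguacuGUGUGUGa
miR-206-3p: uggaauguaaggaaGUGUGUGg
miR-485-3p: cauacacggCUCUCcucucuuc
miR-207: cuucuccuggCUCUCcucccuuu
miR-298-3p: aggaacuagccuuCUCUCugcu

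The probes of miR-146b-5p lay at chr1:251558065-251558084 and those of miR-146a-5p at chr10:28476387-28476405 on the rat build rn4, which the scanner files name. Probes of miR-29c-3p lay at chr13:110968102-110968122, of miR-96-5p at chr4:57074917-57074936, of miR-32-3p at chr5:74797873-74797892 and of miR-672-5p at chrX:92107924-92107940. In the gene table of GRCr8, the hairpin of miR-32 lay within the span of Tmem245, that of miR-672 within Nexmif, that of miR-340 within Rnf130 and that of miR-207 within Dnaja1. The hairpins of miR-384 and miR-325 lay within the span of the same uncharacterised locus, LOC103690870. Whether they are exonic or intronic there was not determined here.

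The unit of the main test was the array. A miR's 16 spots on an array were averaged after quantile normalization of the linear signal and log2 transformation, and limma was fitted to these means over all 24 arrays. A miR was called at an absolute log2 fold change (log2FC) above 0.1375, which is 1.1-fold, and a Benjamini-Hochberg adjusted p below 0.05. The methods' own fit, here named the pooled correlation test, lets the 16 spots enter as correlated values and gives the same log2FC with another standard error. A miR counted as above background on an array when the scanner software marked at least 8 of its 16 spots so, and as detected when this held for every array of 6h_Cyt, of 6h_Giv_Cyt or of both. Of the 758 miRs, 134 were detected and 594 reached 8 such spots on no array of the 6.

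The number of miRs well above background was 146, 157 and 134 on arrays 1 to 3 of 6h_Cyt and 139, 141 and 136 on those of 6h_Giv_Cyt. An exact permutation test of the means gave a two-sided p of 0.50, where 3 against 3 arrays cannot go below 0.10. Brightness, as the 75th percentile of the background-subtracted signal over the 117 miRs detected on all 24 arrays, was 393 ± 18.1 in 6h_Cyt and 359 ± 37.2 in 6h_Giv_Cyt (SD, n = 3, exact permutation p = 0.20). All 3 arrays of 6h_Giv_Cyt lay on slide 3, whereas array 1 of 6h_Cyt lay on slide 4 and arrays 2 and 3 on slide 2. The groups therefore shared no slide, and within this comparison slide and treatment cannot be told apart.

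Array 3 of 6h_Giv_Cyt stood apart. Across the 758 miRs its log2 signal correlated at r = 0.970 and 0.978 with the other arrays of its group, which correlated with each other at r = 0.997. Array 2 of 6h_Cyt correlated at r = 0.991 with both others of its group, against 0.999 between those. Over the 134 detected miRs, the deviation of 6h_Giv_Cyt array 3 from its group correlated with that of 6h_Cyt array 2 from its own at r = 0.92, a description across miRs, which are not independent replicates. Both arrays thus departed from their groups in the same direction, the former further. Values without these arrays stand beside the main results below, an alternative chosen after the data were seen.

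In the main test, limma on array means called 0 of 758 miRs (0%) in 6h_Giv_Cyt vs 6h_Cyt. miR-146a-5p came closest, with an adjusted p of 0.40. Unadjusted, p was below 0.05 in 24 miRs (3.17%), with 8 higher and 16 lower in the presence of Givinostat. The pooled correlation test called 21 miRs (2.77%), 7 of them lower (0.923%) and 14 higher (1.85%). Over all miRs the median log2FC was -0.00 and 383 of 758 were lower (50.5%), and over the detected miRs it was -0.03 with 74 of 134 lower (55.2%), a number that ran from 59 to 86 under the other background and scaling settings. The arrays of both groups did not overlap for 63 miRs (8.31%), of which 42 (5.54%) were lower and 21 higher with Givinostat. Among the 134 detected miRs this was so for 7 (5.22%), 5 of them lower (3.73%). Interchangeable arrays, 3 against 3, do not overlap with a probability of 0.10, and neither share is above that level.

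All 7 miRs that the pooled correlation test called lower were detected. The largest difference was that of miR-146b-5p, which has the seed of miR-146a-5p. Its log2 signal was 7.24, 6.96 and 7.26 on the 6h_Cyt arrays and 7.02, 6.81 and 6.36 on the 6h_Giv_Cyt arrays. The 6h_Giv_Cyt arrays occupied 3 of the 4 lowest places, with array 1 above the lowest 6h_Cyt array. The log2FC was -0.42 (SE 0.18), with an adjusted p of 0.926 by limma on array means and of 3.02e-06 by the pooled correlation test.

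miR-384-5p carries the same seed as the miR-30 family. Its log2 signal was 7.65, 7.60 and 7.59 in 6h_Cyt and 7.50, 7.44 and 7.01 in 6h_Giv_Cyt, so that the groups did not overlap. The log2FC was -0.30 (SE 0.15, limma adjusted p = 0.926, pooled correlation adjusted p = 8.04e-05). miR-325-3p did not overlap either, at 6.84, 6.63 and 6.72 against 6.53, 6.49 and 6.34. With a log2FC of -0.28 (SE 0.09) it was the lower miR whose 6h_Giv_Cyt arrays lay closest together (SD 0.10), and its unadjusted p was the smallest of the 7 (0.00555, adjusted p = 0.926 by limma on array means).

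In the other 4 lower miRs the groups overlapped. miR-96-5p, a member of the miR-183 cluster, which is abundant in sensory and neuroendocrine cells, was at 8.80, 8.45 and 8.72 against 8.50, 8.68 and 8.12 (log2FC -0.22, SE 0.15). miR-29c-3p, whose family represses collagen and extracellular matrix mRNAs, was at 8.94, 8.47 and 8.80 against 8.66, 8.86 and 8.05 (log2FC -0.21, SE 0.19). Array 3 of 6h_Giv_Cyt was the lowest of the 6 arrays in both, and array 2 of 6h_Cyt the next lowest. miR-340-5p was at 7.25, 7.04 and 7.17 against 7.09, 7.11 and 6.73 (log2FC -0.18, SE 0.13), and miR-30d-5p at 7.70, 7.40 and 7.43 against 7.40, 7.46 and 7.16 (log2FC -0.17, SE 0.10). In both, the remaining 5 arrays lay within a span that held arrays of either group.

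**Figure D1:**
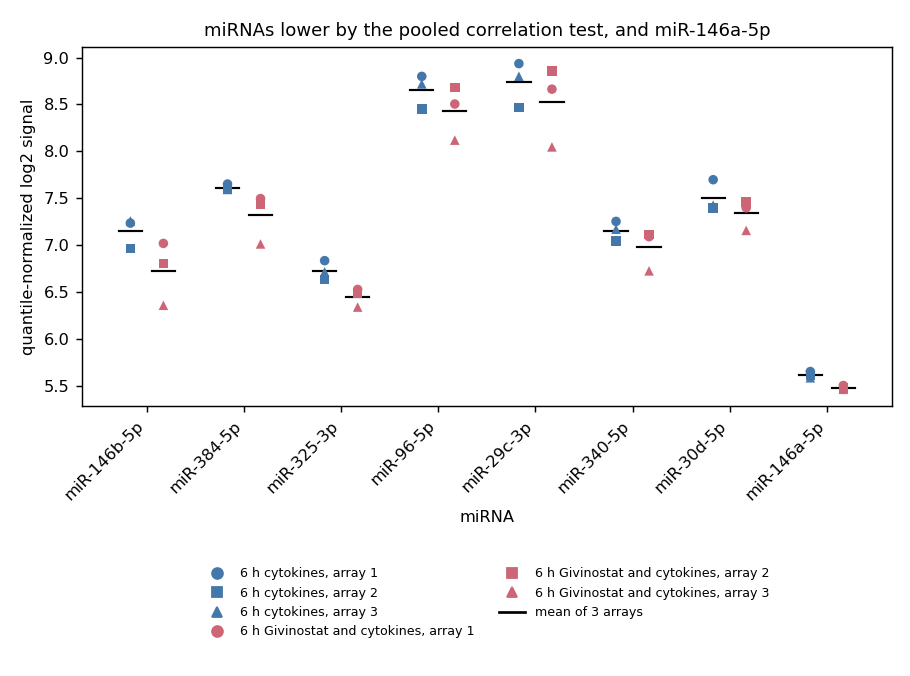
Quantile-normalized log2 signal (vertical axis) of the 7 miRs called lower by the pooled correlation test and of miR-146a-5p, on each array of 6h_Cyt (blue) and 6h_Giv_Cyt (red). The marker shape gives the array number and the bar the mean of 3 arrays. The triangle of 6h_Giv_Cyt, array 3, is the lowest point of every miR, and the groups are apart in miR-384-5p, miR-325-3p and miR-146a-5p. That array is the lowest of the 6 in 78 of the 134 detected miRs.

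Outside those 7, the detected miRs whose groups did not overlap were miR-192-5p, miR-335 and miR-125b-5p, which were lower, and miR-3473 and miR-1839-3p, which were higher. miR-192-5p, which responds to p53, was at 8.74, 8.50 and 8.58 in 6h_Cyt and 8.44, 8.49 and 7.90 in 6h_Giv_Cyt, a log2FC of -0.34 (SE 0.17). miR-335 (log2FC -0.18, SE 0.11) and miR-125b-5p (log2FC -0.16, SE 0.06) were lower by less. miR-3473 was at 6.97, 6.82 and 6.94 against 7.20, 7.04 and 7.09, a log2FC of 0.20 (SE 0.09), and miR-1839-3p had a log2FC of 0.08 (SE 0.03). In the 2 higher miRs array 3 of 6h_Giv_Cyt lay within 0.03 of the mean of the other arrays of its group, whereas in the 5 lower detected miRs without overlap, miR-384-5p and miR-325-3p included, it lay below that mean by 0.17 to 0.57. None of these 7 non-overlapping miRs had an adjusted p below 0.926 by limma on array means.

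The 14 miRs called higher by the pooled correlation test were all detected, and the groups overlapped in each of them. The highest log2FC was that of miR-32-3p, the 3p arm of the miR-32 hairpin, with 8.32, 8.97 and 8.39 in 6h_Cyt against 8.48, 8.52 and 9.79 in 6h_Giv_Cyt (log2FC 0.37, SE 0.38). miR-485-3p, which is encoded in the imprinted Dlk1-Dio3 region, was at 7.83, 8.34 and 7.82 against 7.84, 8.09 and 9.02 (log2FC 0.32, SE 0.35). miR-672-5p was at 8.40, 8.88 and 8.48 against 8.55, 8.54 and 9.57 (log2FC 0.30, SE 0.27). In each, array 3 of 6h_Giv_Cyt was the highest of the 6 and array 2 of 6h_Cyt came next. The other 4 lay close together in miR-32-3p and miR-672-5p, and less so in miR-485-3p.

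The remaining 11 were miR-764-5p (log2FC 0.31), miR-207 (0.27), miR-1188-3p (0.25), let-7d-3p (0.24), miR-298-3p (0.21), miR-3574 (0.21), miR-667-3p (0.20), miR-465-5p (0.20), miR-34b-3p (0.20), miR-206-3p (0.19) and miR-328b-3p (0.19). miR-667-3p lies in the Dlk1-Dio3 region like miR-485-3p, miR-34b is a p53 target and miR-206 is a skeletal muscle miR. The unadjusted p of the 14 by limma on array means ranged from 0.20 to 0.445, whereas their adjusted p by the pooled correlation test ranged from 0.00315 to 0.0473. The SD of the 6h_Giv_Cyt arrays was 0.28 to 0.75 in these miRs and that of the 6h_Cyt arrays 0.10 to 0.36, so that each log2FC was smaller than the spread of the 6h_Giv_Cyt arrays. Array 3 of 6h_Giv_Cyt was the highest of the 6 arrays in 14 of 14. Over the 134 detected miRs it was the highest in 44 and the lowest in 78.

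**Figure D2:**
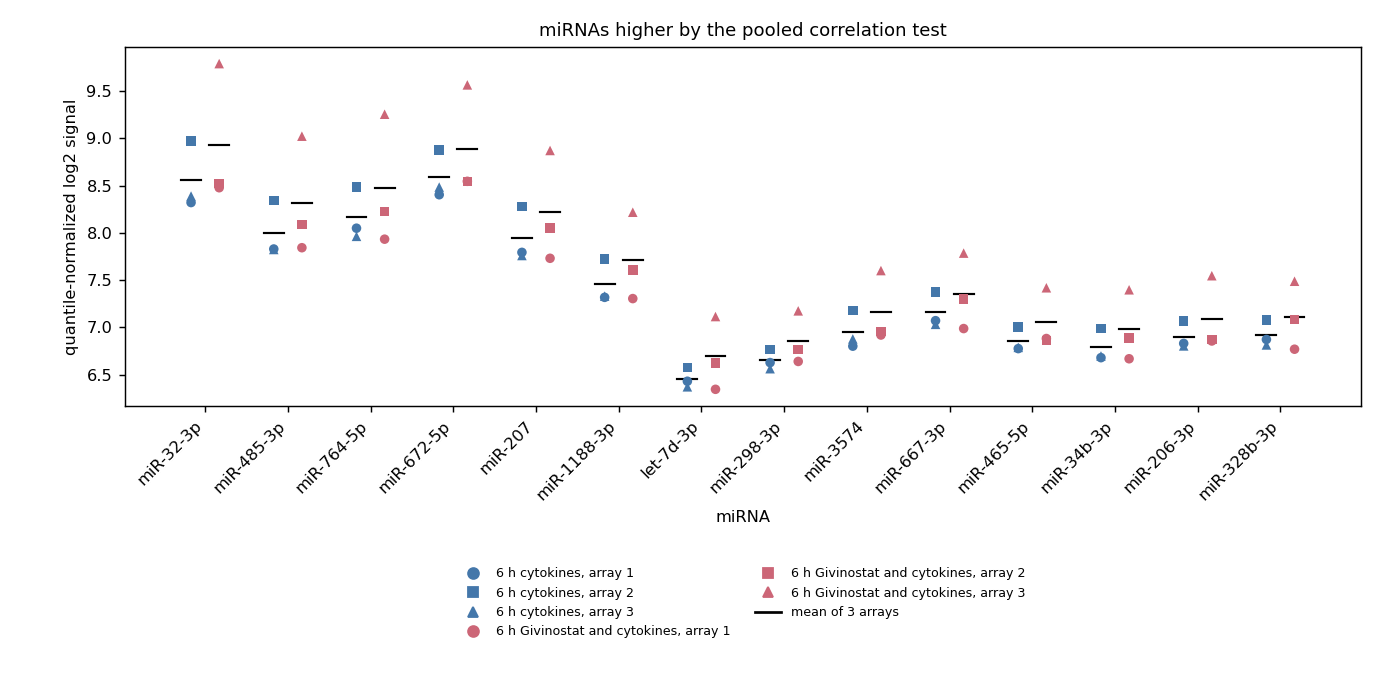
Quantile-normalized log2 signal (vertical axis) of the 14 miRs called higher by the pooled correlation test, on each array of 6h_Cyt (blue) and 6h_Giv_Cyt (red), ordered by log2FC. The marker shape gives the array number and the bar the mean of 3 arrays. The triangle of 6h_Giv_Cyt, array 3, is the highest point in all 14 miRs, and the square of 6h_Cyt, array 2, is the highest of its group.

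Without array 3 of 6h_Giv_Cyt, the differences of the 14 higher miRs ranged from -0.09 to 0.05 on the log2 scale, with 10 of them below 0, and those of the 7 lower miRs from -0.24 to 0.03, with 6 still lower. The 3 that were lower by more than 0.1375 were miR-146b-5p (-0.24), miR-325-3p (-0.22) and miR-384-5p (-0.15). The pooled correlation test then called 0 miRs. Without array 2 of 6h_Cyt instead, it called 50 miRs, 36 higher and 14 lower, among them the same 21. With both arrays left out it called 0, and the differences were -0.33 to -0.11 in the 7 lower miRs and 0.05 to 0.14 in the 14 higher ones, all 21 in the direction they had with 6 arrays, of which these 4 are a part. By limma on array means 0 miRs were called in each of these settings.

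**Figure D3:**
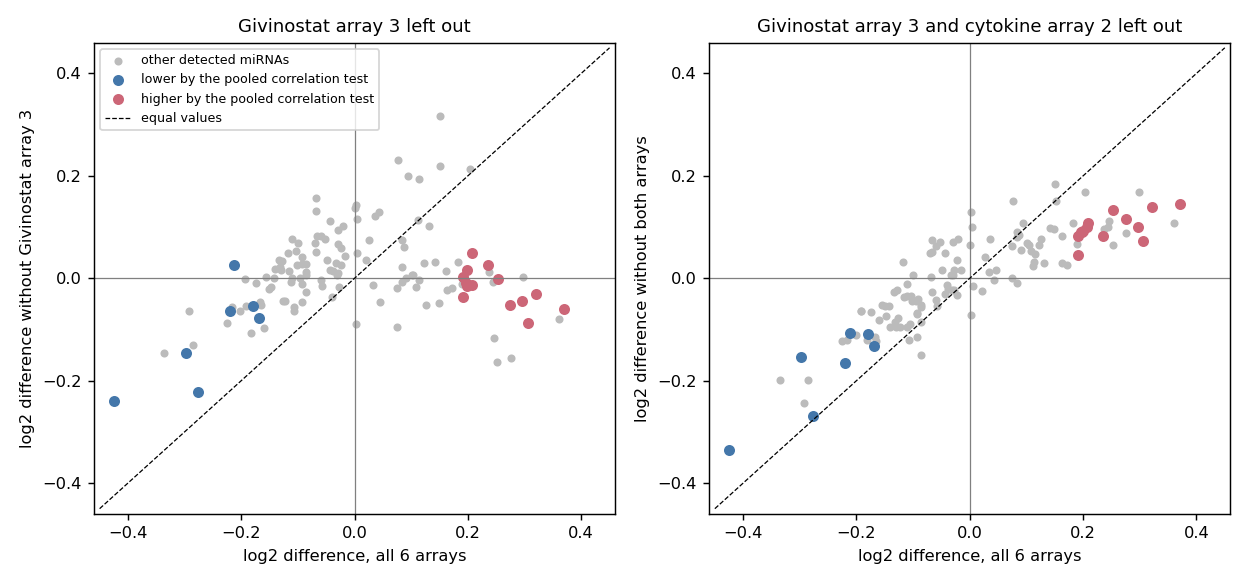
Difference in log2 signal, 6h_Giv_Cyt minus 6h_Cyt, of the 134 detected miRs with all 6 arrays (horizontal axes) against the same difference without array 3 of 6h_Giv_Cyt (left) and without that array and array 2 of 6h_Cyt (right). Blue and red points are the miRs called lower and higher by the pooled correlation test, and the dashed line marks equal values. On the left the red points lie between -0.09 and 0.05, and on the right they lie between 0.05 and 0.14.

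Over all 24 arrays, the median deviation of the 14 higher miRs from their means over the arrays was highest on array 3 of 6h_Giv_Cyt, at 0.61. The next were array 1 of 24h_Giv_Cyt (0.40) and arrays 2 and 3 of 6h_Giv_Ctrl (0.40 and 0.26), and the lowest was array 1 of 6h_Giv_Ctrl (-0.54). Arrays of the same group thus lay far apart in these miRs also outside the cytokine groups. The 7 lower miRs had their lowest median deviation on array 3 of 6h_Giv_Cyt as well, at -0.44. Both sets were called in a comparison that holds this array, so its extreme place in each was largely set by their choice.

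Some of the higher miRs carried a short motif, which the calls did not use. GUGUGUG was present in 3 of the 13 higher miRs with a sequence (23.1%), in 5 of the 123 detected miRs with one (4.07%) and in 5 of all 685 (0.730%). The other carriers among the detected miRs were miR-466b-5p, with a log2FC of 0.36, and miR-466d, with 0.16, neither of which was called. CUCUC was present in 4 of the 13 (30.8%), the fourth being miR-328b-3p, in 5 of the 123 (4.07%), the fifth being miR-30c-5p with a log2FC of -0.09, and in 13 of the 685 (1.90%). Both motifs were looked for in the mature strand as written, and were chosen after the values were seen. Neither was present in the 6 lower miRs with a sequence, whose GC content had a median of 36.4% against 50% in the 13 higher and 45.5% in the 123 detected miRs. Across those 123, GC content correlated with log2FC at r = 0.24 and with the deviation of 6h_Giv_Cyt array 3 at r = 0.14, as a description.

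The same contrast at 24 h used no array of the 6 h comparison, so the 21 miRs could be looked up there. In 24h_Giv_Cyt minus 24h_Cyt, all 7 miRs that were lower at 6 h had a negative log2FC, from -0.30 for miR-384-5p to -0.01 for miR-30d-5p, and all 14 that were higher had a positive one, from 0.13 to 0.35. None of the 21 passed limma on array means there (smallest adjusted p = 0.911), nor had any at 6 h. The pooled correlation test, which had called them at 6 h, is not given for this contrast. By its own fit the paper lists miR-29c-3p, miR-96-5p, miR-340-5p and miR-384-5p as lower with Givinostat at 24 h, from these same arrays. miR-325-3p was at -0.23 (SE 0.09) and miR-96-5p at -0.24 (SE 0.15). Of all 134 detected miRs, 115 (85.8%) had the same sign at both times, and the log2FC values correlated at r = 0.79 across them. Without array 3 of 6h_Giv_Cyt 65 did (48.5%, r = -0.04), and without array 2 of 6h_Cyt as well 105 did (78.4%, r = 0.64). With all 6 arrays at 6 h and without array 1 of 24h_Giv_Cyt, 105 did (78.4%, r = 0.60). The arrays of 24h_Giv_Cyt lay on slides 3 and 4 and those of 24h_Cyt on slides 1 and 2.

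**Figure D4:**
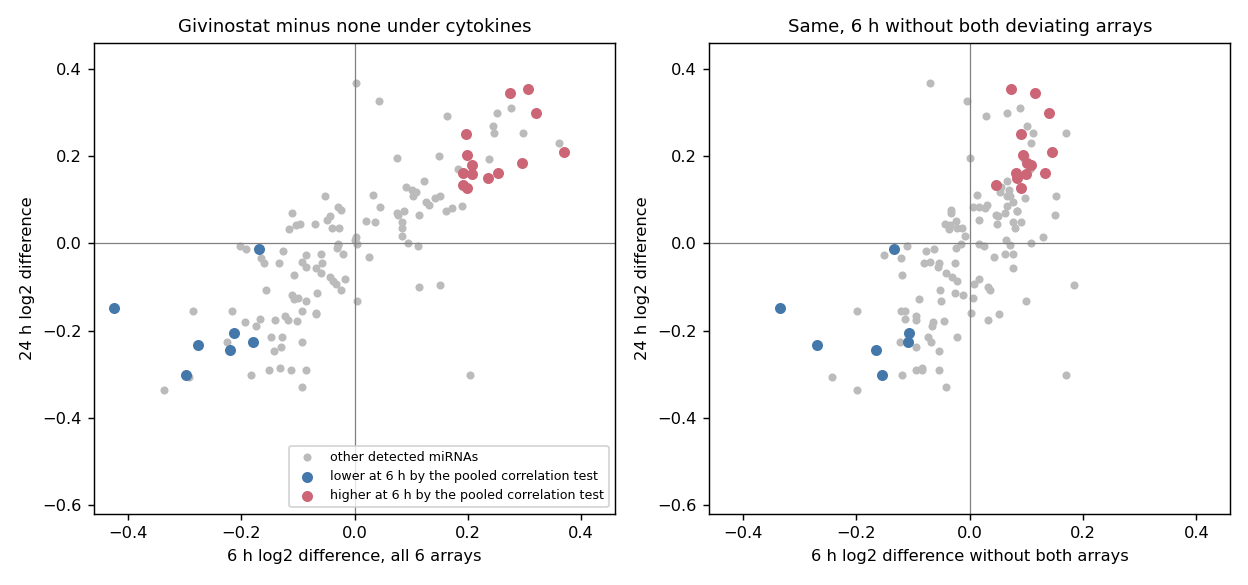
Log2 difference between Givinostat with cytokines and cytokines alone at 24 h (vertical axes) against the same difference at 6 h (horizontal axes) for the 134 detected miRs, with all 6 arrays at 6 h (left) and without array 3 of 6h_Giv_Cyt and array 2 of 6h_Cyt (right). Blue and red points are the miRs called lower and higher at 6 h by the pooled correlation test. All blue points lie below 0 and all red points above 0 at 24 h.

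Without cytokines at 6 h, in 6h_Giv_Ctrl minus 6h_Ctrl, 4 of the 7 lower miRs were lower and 3 higher (-0.14 for miR-146b-5p to 0.06 for miR-96-5p), and 14 of the 14 higher miRs were higher (0.01 to 0.25). None of them passed limma on array means there. Of all 134 detected miRs, 91 (67.9%) had the same sign without cytokines as with them (r = 0.51 across miRs), and 111 did (82.8%, r = 0.81) without array 1 of 6h_Giv_Ctrl. Without array 3 of 6h_Giv_Cyt 57 did (42.5%, r = -0.18), and without array 2 of 6h_Cyt as well 77 did (57.5%, r = 0.24). To ask whether Givinostat acted otherwise with cytokines than without, the difference between both effects was tested. Limma on array means called 0 miRs (0%) for this term. Before adjustment 12 of 758 had p below 0.05, less than the share of 0.05 that no effect would give on average. The pooled correlation test called 1 (0.132%), miR-96-5p, at -0.28 (adjusted p = 0.0310), and limma on array means gave it an adjusted p of 0.999. Without array 3 of 6h_Giv_Cyt the pooled correlation test no longer called miR-96-5p for this term (-0.12, adjusted p = 0.989). It then called miR-3099 alone, at 0.33 (adjusted p = 0.0119), a miR named after its value was seen. For miR-146b-5p the term was -0.28 (SE 0.26) and for miR-325-3p -0.19 (SE 0.12), both with an adjusted p of 0.999 by limma on array means. The term of miR-146b-5p was -0.03 (SE 0.22) without array 1 of 6h_Giv_Ctrl and -0.10 (SE 0.25) without array 3 of 6h_Giv_Cyt, and that of miR-325-3p was -0.09 (SE 0.11) and -0.14 (SE 0.13).

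The miR with the smallest p at 6 h was miR-146a-5p, which shares its seed with miR-146b-5p. Its log2 signal was 5.65, 5.62 and 5.59 in 6h_Cyt and 5.51, 5.48 and 5.47 in 6h_Giv_Cyt, without overlap. The difference in measured signal was -0.14 (SE 0.03, unadjusted p = 0.000528, adjusted p = 0.40 by limma on array means), just within the log2FC threshold. None of the 12 arrays at 6 h showed miR-146a-5p above background, so no fold is read from this difference. Without array 3 of 6h_Giv_Cyt it was -0.13. In the cytokine-free groups the signal was 5.46 ± 0.04 in 6h_Ctrl and 5.42 ± 0.02 in 6h_Giv_Ctrl (SD, n = 3), so the 6h_Giv_Cyt arrays at 5.48 ± 0.02 lay within 0.03 of the mean of 6h_Ctrl.

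At 24 h the order was the opposite. There miR-146a-5p was above background on 3 of 3 arrays of both cytokine groups, with 6.11, 6.04 and 5.99 in 24h_Cyt and 6.15, 6.28 and 6.20 in 24h_Giv_Cyt, a log2FC of 0.16 (SE 0.03). The difference between the Givinostat effects at 24 h and at 6 h was 0.30 (SE 0.05, adjusted p = 0.00343 by limma on array means). It was the only miR called for this term in the main test (1 of 758, 0.132%). Before adjustment 28 of 758 had p below 0.05, less than the share of 0.05 that no effect would give on average. The pooled correlation test called 5 (0.660%), namely miR-146a-5p, miR-652-5p and miR-7a-2-3p, which were higher, and miR-188-5p and miR-3584-5p, which were lower. A fixed block for the slide left this miR at 0.31 and no longer called (adjusted p = 0.0979), and 4 further settings ended the call as well. The signal in 24h_Giv_Cyt was at least 1.16-fold higher than in 6h_Giv_Cyt, and in 24h_Cyt at least 1.07-fold higher than in 6h_Cyt, when the dim group is set to the higher of its own signal and the lowest signal well above background on each array.

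miR-146b-5p was above background on each of the 12 arrays with cytokines. Its level was 7.15 ± 0.16 in 6h_Cyt, 6.73 ± 0.34 in 6h_Giv_Cyt, 7.50 ± 0.13 in 24h_Cyt and 7.36 ± 0.19 in 24h_Giv_Cyt (SD, n = 3). In 6h_Ctrl it was 6.71 ± 0.17, so the mean of 6h_Giv_Cyt lay within 0.03 of that of 6h_Ctrl. For miR-146b-5p this nearness rests on array 3 of 6h_Giv_Cyt, which lay below the 6h_Ctrl mean, whereas arrays 1 and 2 lay above it. Without array 3 the difference to 6h_Cyt was -0.24, against -0.42 with it. The arrays of 6h_Giv_Ctrl were spread most, at 7.07, 6.34 and 6.29. The effect of Givinostat at 24 h minus that at 6 h was 0.28 (SE 0.26, adjusted p = 0.999 by limma on array means) for this miR.

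**Figure D5:**
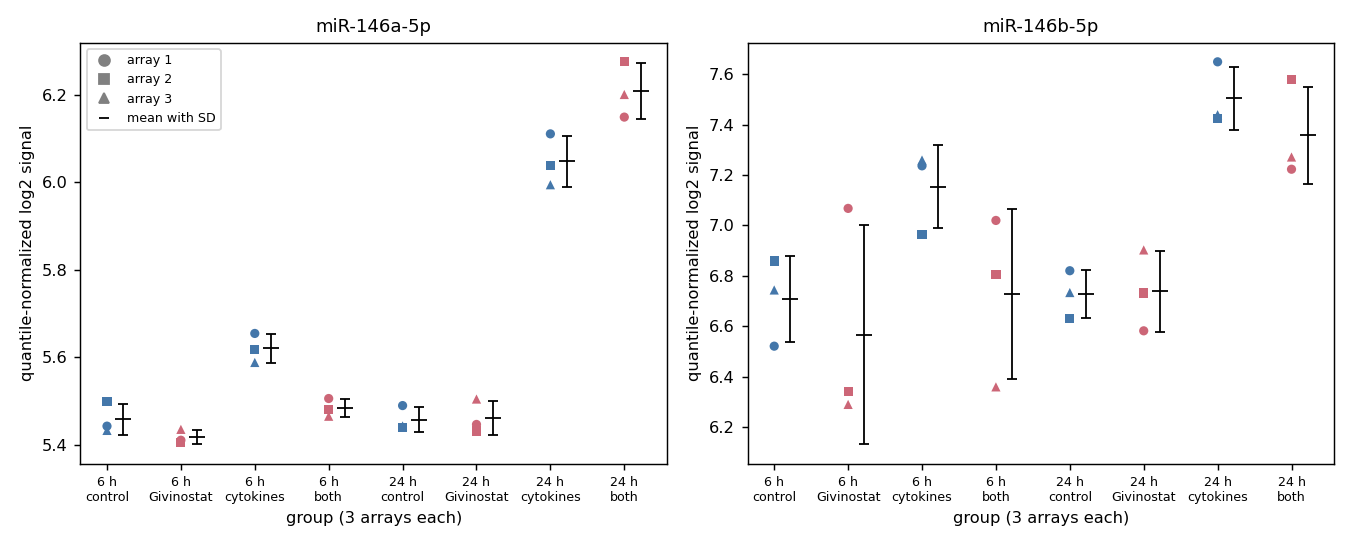
Quantile-normalized log2 signal (vertical axes) of miR-146a-5p (left) and miR-146b-5p (right) on the 3 arrays of each of the 8 groups, with Givinostat groups in red, the others in blue, and the mean with its SD beside the points. At 6 h the red points of miR-146a-5p under cytokines lie below the blue ones, and at 24 h above them. The vertical scales of both panels differ.

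Groups of related miRs were read by their counts and medians, beside 74 of 134 lower and a median of -0.03 over all detected miRs. All 5 miR-30 family 5p arms were lower (median log2FC -0.11), with miR-30d-5p called by the pooled correlation test. All 3 miR-29 3p arms were lower (median -0.14), with miR-29c-3p called likewise, and all 3 arms of the miR-183 cluster (median -0.19), with miR-96-5p called. The 4 detected members of the miR-15/16 seed family, which restrains the cell cycle, were lower too (median -0.11), the one with the smallest p being miR-15b-5p at -0.23 (SE 0.13). All detected members of these 4 families stayed lower under each of the 7 other background and scaling settings. Under other alternatives miR-182, of the miR-183 cluster, was above 0, with 0.017 for the median over spots. miR-29c-3p was at 0.026 without array 3 of 6h_Giv_Cyt. Without array 3 of 6h_Giv_Cyt the 4 medians were -0.05, 0.02, -0.05 and 0.04, against 0.00 over the detected miRs. Members of a family differ by few bases, and whether their probes were read separately was not tested.

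The list of the let-7 family with miR-98 left out let-7g-5p, which the array also measured. The 8 listed members were all detected, 6 of them with a negative log2FC. Their median was -0.04, and 0.07 without array 3 of 6h_Giv_Cyt. The number below 0 was 4 with the processed signal scaled to detected miRs and with the total signal per miR, and 6 to 8 with the other scalings. let-7i-5p, the one with the smallest p, was at -0.13 (SE 0.14). The miR-200 family, which maintains the epithelial state, had 2 detected members, both with a negative log2FC, and 1 of them with each of those 2 signals. Their median was -0.19, and -0.02 without array 3 of 6h_Giv_Cyt, with miR-141-3p at 9.30, 8.71 and 9.20 against 8.89, 9.12 and 8.32 (log2FC -0.29, SE 0.21). The 3 detected guide arms of the miR-17/92 and miR-106b/25 clusters had a median of -0.09, and 0.03 without array 3 of 6h_Giv_Cyt, with miR-25-3p at -0.15 (SE 0.12). No member of these 3 groups was called by either test. Among the 5 detected miRs tied to deacetylase inhibitors in other cells, a list that shares miR-15b-5p, miR-16-5p and miR-29b-3p with the families above, all had a negative log2FC, and 4 did with the processed signal scaled to detected miRs and with the total signal per miR. Their median was -0.12, and 0.02 without array 3 of 6h_Giv_Cyt.

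Islet and insulin-supporting miRs showed small differences of both signs. miR-7a-5p, a brake on β-cell growth and secretion, was at 10.998, 10.53 and 11.04 in 6h_Cyt and 11.06, 11.05 and 10.81 in 6h_Giv_Cyt (log2FC 0.11, SE 0.13), but lay below 0 under other scalings, with -0.14 after median centring. The detected islet miRs were 3, with a median log2FC of 0.00. miR-182 was at -0.03 (SE 0.04), and the 4 detected insulin-supporting miRs had a median of -0.03. miR-24-3p had a log2FC of 0.09 (SE 0.11) and of -0.11 with median centring, among 4 detected miR-23, miR-24 and miR-27 arms with a median of -0.01. miR-212-3p, which CREB induces together with miR-132, was at 7.08, 6.63 and 6.97 against 7.27, 7.15 and 6.71 (log2FC 0.15, SE 0.17). The 3p and 5p arms that are induced by activity numbered 4, of which 2 were detected and none was called.

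Of the 7 NF-κB-responsive miRs 3 were detected, all 3 with a negative log2FC (median -0.14, and 0.00 without array 3 of 6h_Giv_Cyt), and miR-146b-5p was called by the pooled correlation test. The other 4 were not among the detected miRs. Of the 12 miRs tied to β-cell death 7 were detected, all 7 with a negative log2FC (median -0.14, and 0.02 without array 3 of 6h_Giv_Cyt), and 6 with the processed signal scaled to detected miRs and with the total signal per miR. Among them was miR-204-5p, which represses MafA, a transcription factor of the insulin gene, at -0.13 (SE 0.08). None of the 3 miR-34 family 5p arms was detected.

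The study had sorted 13 miRs by how they responded to cytokines and to Givinostat on these same arrays, so they are no independent evidence of a direction. Of the 8 that were to be raised by cytokines and lowered by Givinostat at 24 h, 7 had a lower signal at 6 h. Among them were miR-340-5p, miR-384-5p, miR-29c-3p and miR-96-5p, called by the pooled correlation test and given above. miR-101a-3p (-0.10), miR-140-5p (-0.10), miR-455-5p (-0.11) and miR-3584-5p (0.03) did not reach 8 of 16 spots on all arrays of either group, so these are differences in measured signal. Of the 3 with the opposite pattern, miR-466b-2-3p was at 10.04, 10.69 and 9.86 against 10.05, 10.03 and 11.34, a log2FC of 0.28 (SE 0.42) that was -0.16 without array 3 of 6h_Giv_Cyt. The other 2 were miR-652-5p at 0.04 (SE 0.18) and miR-7a-2-3p at 0.00 (SE 0.08), and the last 2 of the 13 were miR-146a-5p and miR-146b-5p.

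The miRs used as internal controls differed little in the main test. let-7c-5p had a log2FC of -0.05 (SE 0.11) and miR-103-3p of 0.00 (SE 0.11), with signs that depended on the scaling (0.01 and -0.02 for the processed signal), yet array 3 of 6h_Giv_Cyt was lower than the mean of the others of its group by 0.38 and 0.41 in these miRs. miR-423-3p and miR-423-5p were not detected in either group. Markers of muscle, liver, blood, fibroblasts and endothelium numbered 17. Of these, 15 did not exceed background on any of the 6 arrays, miR-214-3p exceeded it on 3 and miR-206-3p on 6, and their mean log2 signal was 5.68 to 5.74 in 6h_Cyt and 5.69 to 5.76 in 6h_Giv_Cyt. The defining markers miR-122-5p, miR-451-5p, miR-142-3p and miR-126a-3p were not above background. The β-cell markers miR-375-3p and miR-7a-5p were detected in both groups. Of the other listed β-cell markers, miR-200c-3p, miR-141-3p, miR-183-5p, miR-96-5p and miR-182 were detected, whereas miR-7b, miR-184, miR-200a-3p, miR-200b-3p and miR-429 were not.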

How the data were processed

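MicroRNA was measured on Agilent SurePrint G3 rat miRNA arrays, 1 per sample and 1 colour, in 24 arrays of 8 groups of 3, taken from the titles of the samples. The intensity of each spot was deposited by the authors as Feature Extraction output, version 10.7.3.1 in the file headers and 9.1 in the processing notes, without normalization between arrays. The log2 table deposited by the authors holds 1 quantile-normalized value per miR and array and equalled the median over its 16 spots computed here to within 4.94e-09. No spot was saturated, and the number of arrays limits the precision.

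The median foreground signal of 12128 miR spots was quantile-normalized without background correction, following the methods, log2-transformed and averaged over the 16 spots. Group means were fitted in limma 3.58.1 (R 4.3.3) over 24 arrays, with 16 residual degrees of freedom before moderation, and 3 contrasts were tested, namely 6h_Giv_Cyt vs 6h_Cyt, this effect against that without cytokines, and this effect at 24 h against that at 6 h. The methods' fit treats the spots as within-array replicates (duplicateCorrelation, consensus correlation 0.0373) and was run as an alternative, because the 16 spots of an array come from 1 hybridization. p-values were adjusted over 758 miRs by Benjamini-Hochberg. Array summaries were compared by exact permutation in SciPy 1.17.1. The fit was tested on simulated data.

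Described by name were the miRs called by either test, the 10 or fewer detected miRs with non-overlapping groups and the largest log2FC, the 13 miRs sorted by the study, its 4 internal controls, the member of each list with the smallest p, and miRs called for a difference term. Carriers of the motifs, the seed relatives, miR-188-5p, miR-375-3p, other β-cell markers and defining markers of other cells were named after their values were seen. The miRs, the lists and the comparison were chosen with earlier results of these data known. Alternatives covered spot summary, outlying spots, background, scaling, filter, slide, replicate block, samples, weights, thresholds, the deposited table and each array left out. Sequences and host genes were matched by name to RefSeq tables of GRCr8, and probe positions are those of the files on rn4.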

Additional observations from a re-analysis of the deposited data

Results flagged for a closer look

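The effect of Givinostat on miR-146a-5p under cytokines differed between the times, the signal being lower than with cytokines alone at 6 h and higher at 24 h. The paper reports both directions by qRT-PCR. The difference between the effects was tested directly and came to 0.297 on the log2 scale (SE 0.05, adjusted p = 0.00343 by limma on array means), with the 6h_Giv_Cyt arrays all below the 6h_Cyt arrays and the 24h_Giv_Cyt arrays all above the 24h_Cyt arrays. It was above background on 3 of 3 arrays of both 24 h cytokine groups and on no array at 6 h, so the 6 h side is a difference in dim signal. Leaving out any 1 of the 24 arrays kept the term between 0.26 and 0.33.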

How the results depend on the processing

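Of 2440 values of 48 named miRs under 51 alternatives, 2342 kept their direction and 98 did not, none of these with an adjusted p below 0.05 by limma on array means. The 0 calls of 6h_Giv_Cyt vs 6h_Cyt became 21 in the pooled correlation test and 1 (miR-203a-3p, not detected) with the total signal per miR, which tested 263 miRs, and stayed 0 on array means with any 1 array left out. The pooled correlation test gave 0 without array 3 of 6h_Giv_Cyt and 50 without array 2 of 6h_Cyt. The 0 calls for the effect with minus without cytokines became 1 in the pooled correlation test, 1 with the total signal, 0 on array means with any 1 array left out, and 1 and 10 in the pooled correlation test without array 3 of 6h_Giv_Cyt and without array 2 of 6h_Cyt. The 1 call for 24 h minus 6 h became 5 in the pooled correlation test (4 without both deviating arrays), 3 with the processed signal scaled to detected miRs, 2 with that scaled to all miRs, 6 with the total signal, 0 without outlying spots, with median centring, with detected miRs alone (which leaves out miR-146a-5p) and with slide as a fixed block. It was 1 or 2 on array means with any 1 array left out, and 14 and 3 in the pooled correlation test without array 3 of 6h_Giv_Cyt and without array 2 of 6h_Cyt. The 63 miRs with non-overlapping groups became 20 and 11 with the processed signal scaled to detected and to all miRs, 13 with the total signal, 39 without normalization, 31 with median centring, 278 without both deviating arrays and 104 to 204 with 1 array left out, since fewer arrays overlap less. The difference term of miR-146a-5p was no longer called without outlying spots (0.25, adjusted p = 0.104), with the processed signal scaled to all miRs (0.64, 0.207), without normalization (0.30, 0.507), with median centring (0.65, 0.0760) and with slide as a fixed block (0.31, 0.0979). The causes were not tested.

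Values of named miRs that took the opposite sign were these. The median over spots and the deposited table each gave miR-7a-2-3p -0.012, miR-103-3p -0.040 and miR-182 0.017. Without outlying spots miR-7a-2-3p was -0.0062 and miR-25-3p 0.13, and with normexp background correction miR-103-3p was -0.0030. The processed signal scaled to detected miRs gave let-7c-5p 0.012 and miR-103-3p -0.023, and scaled to all miRs it gave miR-7a-2-3p -0.0043, miR-103-3p -0.16, miR-7a-5p -0.12 and miR-24-3p -0.052. The total signal gave miR-423-5p -2.11, let-7c-5p 0.0092 and miR-103-3p -0.039. Without normalization miR-103-3p was -0.12, miR-423-3p 0.0048, miR-7a-5p -0.068 and miR-24-3p -0.040. Median centring gave miR-7a-2-3p -0.051, miR-652-5p -0.00033, miR-3584-5p -0.027, miR-103-3p -0.19, miR-423-5p -0.0038, miR-7a-5p -0.14 and miR-24-3p -0.11, and moved the median of the detected miRs from -0.03 to -0.10. Slide as a fixed block gave miR-652-5p -0.49, miR-3584-5p -0.027, miR-103-3p -0.17, let-7c-5p 0.023, miR-7a-5p -0.19, miR-423-3p 0.0013, miR-182 0.00063, miR-212-3p -0.32 and miR-24-3p -0.075, and as a random block miR-103-3p -0.022. Array quality weights gave miR-7a-2-3p -0.027, let-7c-5p 0.025 and miR-182 0.0028. Without both deviating arrays, in either test, miR-7a-2-3p was -0.071, miR-652-5p -0.0042, let-7c-5p 0.071 and miR-182 0.0059.

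With 1 array left out, the log2FC that changed sign ranged from -0.00086 to 0.46 in miR-1188-3p, -0.037 to 0.31 in miR-206-3p, -0.052 to 0.52 in miR-207, -0.38 to 0.026 in miR-29c-3p, -0.061 to 0.60 in miR-32-3p, -0.0099 to 0.36 in miR-34b-3p, -0.014 to 0.33 in miR-3574, -0.031 to 0.56 in miR-485-3p, -0.015 to 0.38 in miR-667-3p, -0.044 to 0.47 in miR-672-5p and -0.087 to 0.57 in miR-764-5p. It ranged from -0.089 to 0.070 in miR-7a-2-3p, -0.16 to 0.52 in miR-466b-2-3p, -0.090 to 0.17 in miR-652-5p, -0.19 to 0.0022 in miR-101a-3p, -0.0019 to 0.057 in miR-3584-5p, -0.085 to 0.14 in miR-103-3p, -0.013 to 0.0086 in miR-423-3p, -0.12 to 0.076 in let-7c-5p, -0.24 to 0.036 in let-7i-5p, -0.049 to 0.21 in miR-7a-5p and -0.054 to 0.011 in miR-182. Leaving out array 3 of 6h_Giv_Cyt turned the sign in 17 of these 22 miRs, array 2 of 6h_Cyt in 3, and each of the other 4 arrays of both groups in 1 to 3.

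The labels do not say whether the replicate numbers pair the samples. Over all miRs the deviations of same-numbered arrays correlated at 0.59, -0.72 and -0.77. The deviating arrays carry different numbers in the compared groups, so these values cannot decide it. With the replicate block the counts of calls were 0, 0 and 1 for the 3 contrasts, as without it. The fit of both compared groups alone gives no difference term, and that of the 6 h groups no term between times. Dim signal limits what can be read of the 594 miRs that were not above background on any of the 6 arrays.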
